A study of Homo sapiens with 6 samples.

Results

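The 10 genes described here encode precursors of neuropeptides and proteins of the dense-core secretory granule. CARTPT, CRH, NPY and GAL are peptide precursors, CHGA, CHGB, SCG2 and SCG3 are chromogranins and secretogranins, and SCG5 and VGF are further granule proteins. They were chosen by name, with earlier results of the same comparison known, and all 10 were among the 13885 genes of the authors' deposited table. Because the table that gave the values had also been seen when the genes were picked, their changes are a description of these samples and support nothing beyond them.

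RNA was sequenced in BE(2)-C, a human neuroblastoma line, with 3 samples in each of 2 groups. In the siPcif1+ATRA group the cells were transfected for 24 h with a small interfering RNA against PCIF1, the enzyme that methylates an adenosine next to the mRNA cap. In the siScram+ATRA group they received a scrambled small interfering RNA for the same time. Both groups, WT in genotype by the labels, then had 10 µM all-trans retinoic acid (ATRA), a differentiating agent, for 4 days, so every value describes retinoic acid-treated cells of 1 line. The labels do not say whether the 3 samples of a group were separate cultures, so p-values measure the spread between these samples alone.

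The table held a single comparison and a mean over both groups, and no value per library, so no spread between single samples can be shown. Its header does not give the direction. PCIF1 was at a log2 fold change of -0.82 (SE 0.19, DESeq2 adjusted p = 0.000167) per the authors' deposited table. The direction in which this targeted gene was lower, at 56.6% of its siScram+ATRA level, was taken as siPcif1+ATRA over siScram+ATRA. Every sign given here rests on PCIF1 alone. The table's name puts siScram first, and taken as written it would turn every sign. In RNA from whole cultures, fewer cells that express a gene and less RNA per cell cannot be told apart.

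Neuropeptides are cut from larger precursors inside dense-core granules and released when calcium enters the cell. Granins are acidic, calcium-binding proteins that help to form the granule core, and some are themselves cut into peptides. Sympathetic neuroblasts, from which neuroblastoma arises, store such granules together with catecholamines. The cultures carried the marks of that lineage: all 7 sympathetic neuroblast markers examined were in the authors' deposited table, with PHOX2A at a mean normalised count of 4718, DBH at 3014 and TH at 637. Of these markers HAND2 and GATA3 were higher, at log2 fold changes of 0.74 and 0.68, and ISL1 lower, at -0.77, per the authors' deposited table. Of 11 fibroblast and Schwann cell markers 6 were listed, S100B at 1.21 and PDGFRB at -0.94 among them, and of 10 endocrine markers of other tissues 0 were listed. The other 5 fibroblast and Schwann cell markers, SOX10 among them, were not analysed here. The summed mean of those 6 markers in each group is not given by the table, and the part of other cell types in the changes of the 10 genes was not tested.

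Of the 10 genes, 4 were higher and 1 lower in siPcif1+ATRA cells (DESeq2 adjusted p under 0.05) per the authors' deposited table. Over all its genes, 16.3% were called higher and 17.7% lower. The log2 fold changes of the 10 genes ran from -0.71 to 2.09 with a median of 0.27 per the authors' deposited table, whose median over all genes was 0.0059. The sign was positive for 9 genes and negative for VGF. The call divided the group between SCG5, the called gene with the highest adjusted p (0.0106), and SCG3, the next gene, with 0.121 per the authors' deposited table.

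**Figure D1:**
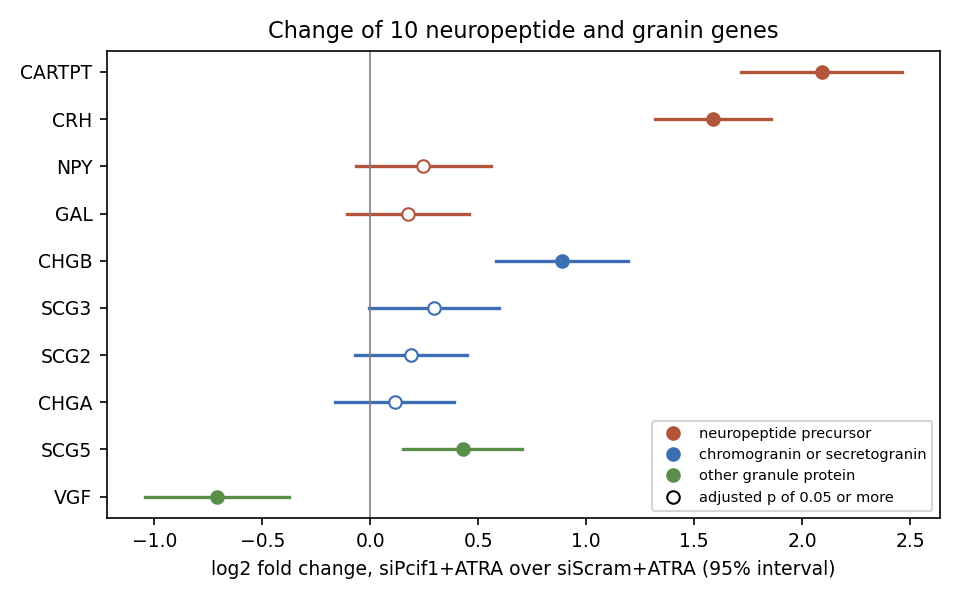
Log2 fold change of each gene, siPcif1+ATRA over siScram+ATRA, with 95% intervals from the deposited SE; filled points had an adjusted p under 0.05. CARTPT, CRH, CHGB and SCG5 lie to the right of 0 and VGF to the left, and the intervals of the other 5 genes cross 0.

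Since the table gives one mean per gene over both groups, the level in each group was estimated from that mean and from the fold change with its shrinkage removed. These estimates carry no error of their own. Levels were set against each other across genes only per kilobase of the main GENCODE 29 transcript.

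CARTPT, which encodes the precursor of the cocaine- and amphetamine-regulated transcript peptides, had the largest change of the 10 genes. Its level was estimated at 328 normalised counts in siPcif1+ATRA cells, against 63.6 in siScram+ATRA cells. In the authors' deposited table its mean normalised count was 196 and its log2 fold change 2.09 (SE 0.19), a 4.26-fold rise with a 95% interval of 3.29 to 5.51 and a DESeq2 adjusted p of 6.87e-25. With shrinkage removed the change was estimated as 5.16-fold. It ranked 11 from the top of all 13885 genes by fold change. CARTPT (ENSG00000164326.4) spans 1886 bases of chromosome 5, from 71719163 to 71721048 in GRCh38, in 3 exons.

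CRH encodes corticotropin-releasing hormone, the hypothalamic peptide that drives release of corticotropin from the pituitary. The estimated level was 1888 normalised counts in siPcif1+ATRA cells and 588 in siScram+ATRA cells. The authors' deposited table gave a log2 fold change of 1.59 (SE 0.14), or 3.00-fold with a 95% interval of 2.49 to 3.62, and a DESeq2 adjusted p of 2.38e-28. With a mean of 1238, above that of CARTPT, and a smaller SE, its adjusted p was the lowest of the 10, while its fold change was second to that of CARTPT. CRH (ENSG00000147571.4) spans 2344 bases of chromosome 8, from 66176382 to 66178725, in 2 exons. The genes for both CRH receptors, CRHR1 and CRHR2, were not analysed here.

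NPY, the precursor of neuropeptide Y and a co-transmitter of noradrenaline in sympathetic neurons, did not pass the threshold. Its estimated level was 1329 normalised counts in siPcif1+ATRA cells and 1104 in siScram+ATRA cells. The log2 fold change per the authors' deposited table was 0.25 (SE 0.16), with a 95% interval of -0.07 to 0.56 and a DESeq2 adjusted p of 0.235. GAL, which encodes galanin, did not pass either, with estimates of 2796 in siPcif1+ATRA cells and 2458 in siScram+ATRA cells. Its log2 fold change was 0.17 (SE 0.14), with an interval of -0.11 to 0.46 and a DESeq2 adjusted p of 0.369 per the authors' deposited table. The intervals of NPY and GAL lie wholly below those of CARTPT and CRH, which start at 1.72 and 1.32 on the log2 scale. On the deposited scale the 4 peptide precursors therefore fell into a pair with changes of 3-fold or more and a pair whose intervals include no change. After removal of a trend in GC content, length and mean expression, NPY was at 0.58 and GAL at 0.61, and both passed. NPY (ENSG00000122585.7) lies on chromosome 7 from 24284163 to 24291865, in 4 exons, and GAL (ENSG00000069482.6) lies on chromosome 11 from 68683779 to 68691175, in 6 exons.

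Among the chromogranins and secretogranins CHGB was called and CHGA, SCG2 and SCG3 were not. CHGB, or chromogranin B, is one of the main proteins of the granule core. It was estimated at 4014 normalised counts in siPcif1+ATRA cells, against 2064 in siScram+ATRA cells. In the authors' deposited table its log2 fold change was 0.89 (SE 0.16), a 1.85-fold rise with a 95% interval of 1.50 to 2.29 and a DESeq2 adjusted p of 2.56e-07. CHGA, or chromogranin A, the related core protein used as a blood marker of neuroendocrine tumours, was estimated at 935 in siPcif1+ATRA cells and 861 in siScram+ATRA cells. Its log2 fold change per the authors' deposited table was 0.11 (SE 0.14, interval -0.16 to 0.39, DESeq2 adjusted p = 0.576). The intervals of CHGB and CHGA do not overlap. CHGB (ENSG00000089199.9) lies on chromosome 20 from 5911430 to 5925361, in 5 exons, and CHGA (ENSG00000100604.12) lies on chromosome 14 from 92923080 to 92935293, in 8 exons.

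SCG2, secretogranin II, the precursor of secretoneurin, was estimated at 8603 normalised counts in siPcif1+ATRA cells and 7488 in siScram+ATRA cells. The authors' deposited table placed it at 0.19 (SE 0.13, interval -0.07 to 0.45, DESeq2 adjusted p = 0.275) on the log2 scale. SCG3, secretogranin III, which binds chromogranin A and cholesterol at the granule membrane, was estimated at 1135 in siPcif1+ATRA cells and 909 in siScram+ATRA cells. Its log2 fold change was 0.30 (SE 0.15) per the authors' deposited table, its DESeq2 adjusted p was 0.121, and the lower end of its interval lay at -0.0041. Both intervals thus include no change, that of SCG3 narrowly. SCG2 (ENSG00000171951.4) lies on chromosome 2 from 223596940 to 223602503, in 2 exons, and SCG3 (ENSG00000104112.8) lies on chromosome 15 from 51681353 to 51721031, in 12 exons.

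SCG5 encodes 7B2, a small granin-like protein that keeps the prohormone convertase PCSK2 from acting early. It was estimated at 807 normalised counts in siPcif1+ATRA cells and 588 in siScram+ATRA cells. The log2 fold change per the authors' deposited table was 0.43 (SE 0.14), 1.34-fold with a 95% interval of 1.11 to 1.63, and the DESeq2 adjusted p was 0.0106. PCSK2 itself was not analysed here. SCG5 (ENSG00000166922.8), on chromosome 15 from 32641676 to 32697098, is the longest gene of the 10, with a span of 55423 bases.

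VGF, first known as a gene induced by nerve growth factor and the precursor of several secreted peptides, was the gene that fell. Its level was estimated at 7199 normalised counts in siPcif1+ATRA cells, against 12368 in siScram+ATRA cells. In the authors' deposited table its log2 fold change was -0.71 (SE 0.17), 0.612 times the siScram+ATRA level with a 95% interval of 0.485 to 0.771, and its DESeq2 adjusted p was 0.00028. Its interval overlaps that of none of the other 9 genes. VGF (ENSG00000128564.6) spans 3085 bases of chromosome 7, from 101162509 to 101165593, on the minus strand. The calls of CHGB, SCG5 and VGF ended when the Wald statistic was divided by its robust SD over all genes, at adjusted p of 0.438, 0.925 and 0.766 from the DESeq2 values. Rescaled in that way, 2 of the 10 genes stayed higher and 0 lower, beside 0.151% higher and 0.821% lower over all genes. The call of VGF also ended after removal of a trend in GC content, length and mean expression.

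**Figure D2:**
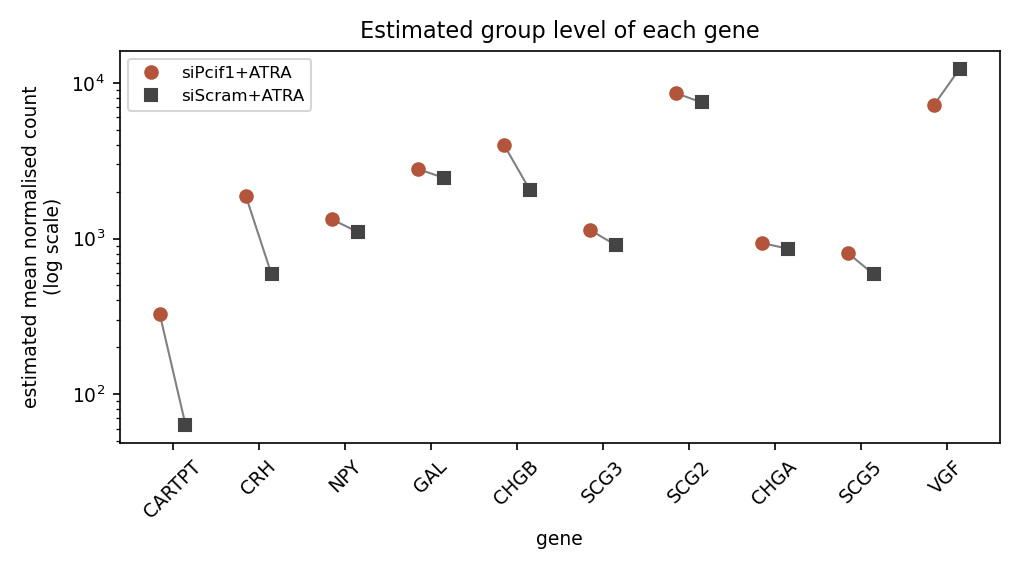
Estimated mean normalised count of each gene (log scale) in siPcif1+ATRA cells (circles) and siScram+ATRA cells (squares), computed from the mean over both groups and the fold change without shrinkage. The line between the symbols slopes most for CARTPT, and VGF is the gene with the circle below the square, at 7199 in siPcif1+ATRA cells against 12368 in siScram+ATRA cells.

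Most of these RNAs were abundant. Per kilobase of transcript, 7 of the 10 genes had a mean above that of 90% of the 11790 protein-coding genes with a transcript model. VGF and GAL had 3799 and 3212 normalised counts per kilobase, SCG2 3123, NPY 2079, CHGB 1192, CRH 802, SCG5 563, CHGA 435, SCG3 308 and CARTPT 214, beside a median of 64.0 over protein-coding genes. The order of the estimated levels per kilobase differed between the groups. In siPcif1+ATRA cells GAL came first at 3418, then SCG2 at 3340, VGF at 2796 and NPY at 2272. In siScram+ATRA cells VGF came first at 4803, then GAL at 3005, SCG2 at 2907 and NPY at 1887. GAL and SCG2 were next to each other in both orders, and since the estimates carry no error, whether neighbours differ cannot be said.

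VGF made up 17.0% of the summed level per kilobase of the 10 genes in siPcif1+ATRA cells and 32.0% in siScram+ATRA cells. CRH made up 7.45% of that sum in siPcif1+ATRA cells and 2.54% in siScram+ATRA cells. CHGB made up 9.58% in siPcif1+ATRA cells and 5.39% in siScram+ATRA cells. CARTPT contributed 2.18% in siPcif1+ATRA cells and 0.462% in siScram+ATRA cells, so the gene with the largest fold change stayed among the scarcer ones. The sum over the 10 genes was 16429 normalised counts per kilobase in siPcif1+ATRA cells and 15029 in siScram+ATRA cells.

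The promoters of 6 of the 10 genes were in the RefSeq promoter table used here, on GRCh38.p14; CRH, CHGB, SCG2 and GAL had no entry. Each entry runs from 250 bases before the start to 50 bases after it. The 3 printed here each hold TGACGTCA, the palindromic cAMP response element (CRE) bound by CREB and related factors, and they belong to the gene with the largest rise, the gene that fell and a gene that was not called. They are printed 5′ to 3′ on the gene's strand up to the first transcribed base. Capitals mark the CRE, TATAA in the window from 45 to 15 bases before the start, and the first transcribed base.
CARTPT, chr5:71719025-71719275, plus strand: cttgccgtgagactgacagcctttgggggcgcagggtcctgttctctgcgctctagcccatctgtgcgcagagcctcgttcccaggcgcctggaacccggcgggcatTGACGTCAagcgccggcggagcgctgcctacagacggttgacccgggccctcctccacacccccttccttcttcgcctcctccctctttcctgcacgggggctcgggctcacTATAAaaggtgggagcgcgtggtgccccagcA
VGF, chr7:101165569-101165819, minus strand: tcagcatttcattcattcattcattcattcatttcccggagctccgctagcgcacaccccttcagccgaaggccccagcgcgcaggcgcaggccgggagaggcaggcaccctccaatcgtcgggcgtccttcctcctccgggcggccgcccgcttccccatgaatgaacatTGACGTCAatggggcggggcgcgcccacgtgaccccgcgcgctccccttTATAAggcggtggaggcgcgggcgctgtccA
CHGA, chr14:92922900-92923150, plus strand: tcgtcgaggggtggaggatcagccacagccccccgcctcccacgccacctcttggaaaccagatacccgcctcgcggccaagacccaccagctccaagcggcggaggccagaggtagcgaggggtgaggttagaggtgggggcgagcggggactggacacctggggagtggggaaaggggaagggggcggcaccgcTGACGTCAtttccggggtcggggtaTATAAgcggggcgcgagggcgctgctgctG

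Counted in bases from the first transcribed base, the CRE began at -143 in CARTPT, at -79 in VGF and at -54 in CHGA. TATAA, looked for on the gene's strand, began at -31 in CARTPT, -30 in VGF and -29 in CHGA. Neither TGACGTCA nor TATAA in that window was found in the entries of NPY, SCG3 and SCG5. TGACG, the 5-base core of the CRE looked for on both strands, was present outside a full CRE in SCG5 and SCG3 and absent from the NPY entry; each full CRE holds it on both strands. Of all 35116 promoter entries of this length 1.85% hold TGACGTCA, 24.6% hold TGACG on either strand, and 4.13% hold TATAA in that window. Among the 9831 entries of genes listed in the table the shares were 3.47%, 35.3% and 2.43%. The 341 genes of that table with a CRE in the entry had a median log2 fold change of -0.02, against -0.0015 for those without. The 3 genes that share CRE and TATAA thus stood at 2.09, -0.71 and 0.11 on the log2 scale per the authors' deposited table. A match is a description of the letters and says nothing of what was bound.

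**Figure D3:**
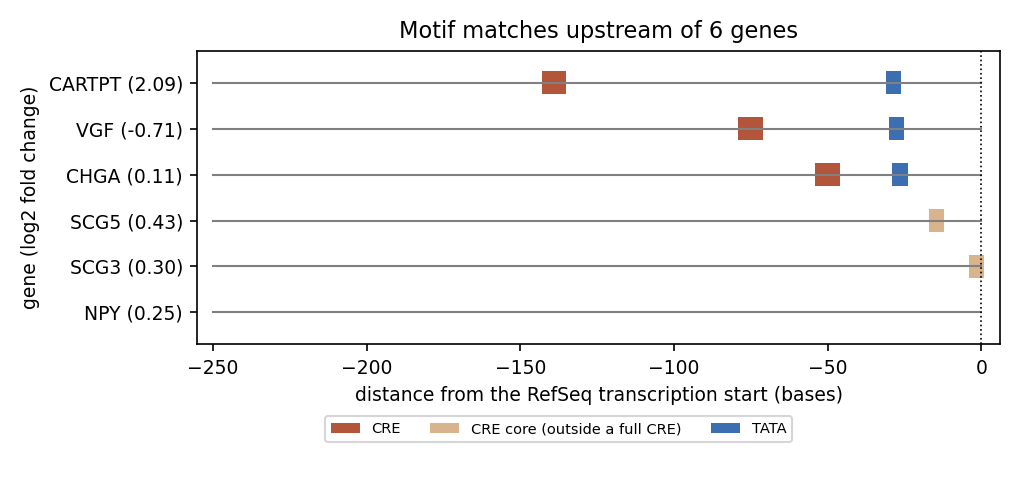
Position of full CREs, of CRE cores outside a full CRE and of TATA matches relative to the RefSeq start in 6 promoters (distance in bases; the log2 fold change of each gene in brackets). CARTPT, VGF and CHGA each have 1 CRE and 1 TATA match, and NPY has none of the 3 motifs.

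Because PCIF1 acts where the first transcribed base is an adenosine, the annotated first base was read for each gene. In the main GENCODE 29 transcript it was A for 5 of the 10 genes, namely CARTPT, CRH, CHGA, SCG2 and NPY, beside 28.6% of protein-coding genes in the table. In RefSeq it was A for 5 of the 6 genes with an entry, all but CHGA, beside 45.6% of the 9831 entries. The RefSeq start lay 24 to 150 bases downstream of the GENCODE start in these 6 genes, and the annotations gave different first bases for CHGA, SCG3, SCG5 and VGF. The start used in BE(2)-C cells was not measured in this table. Over the protein-coding genes, median log2 fold changes per the authors' deposited table were 0.01 for those with A first, -0.04 with C, -0.0026 with G and 0.0018 with T in GENCODE.

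The genes are short and several are rich in G and C. The spans of 8 of the 10 lie under the median of 34056 bases for protein-coding genes, and the transcripts of 9 under the median of 3203 bases. The VGF transcript has a GC content of 70.6%, above that of 99.7% of protein-coding genes, CHGA 62.4% and GAL 61.0%, while SCG3 and SCG2 have 41.9% and 43.0%. Log2 fold changes in the table ran with GC content, length and mean expression, which together accounted for 17.7% of their variance. That trend was below 0 for 9 of the 10 genes, at -0.45 for VGF, -0.44 for GAL, -0.34 for CHGA and -0.34 for NPY, and at 0.09 for SCG3. What gives rise to the trend was not tested.

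With the trend removed from the authors' deposited table, VGF was at -0.26 and no longer passed, at an adjusted p of 0.288 computed from the DESeq2 SE. GAL was then at 0.61, NPY at 0.58 and CHGA at 0.46, and each passed, with adjusted p of 0.000282, 0.00238 and 0.00812 computed from the DESeq2 SEs. CARTPT, CRH, CHGB and SCG5 passed on both scales and were at 2.21, 1.81, 1.11 and 0.51 once the trend was taken out of the authors' deposited table. On that scale 7 of the 10 genes were higher and 0 lower, beside 12.5% higher and 12.8% lower over 13877 genes. SCG2 and SCG3 passed on neither scale.

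**Figure D4:**
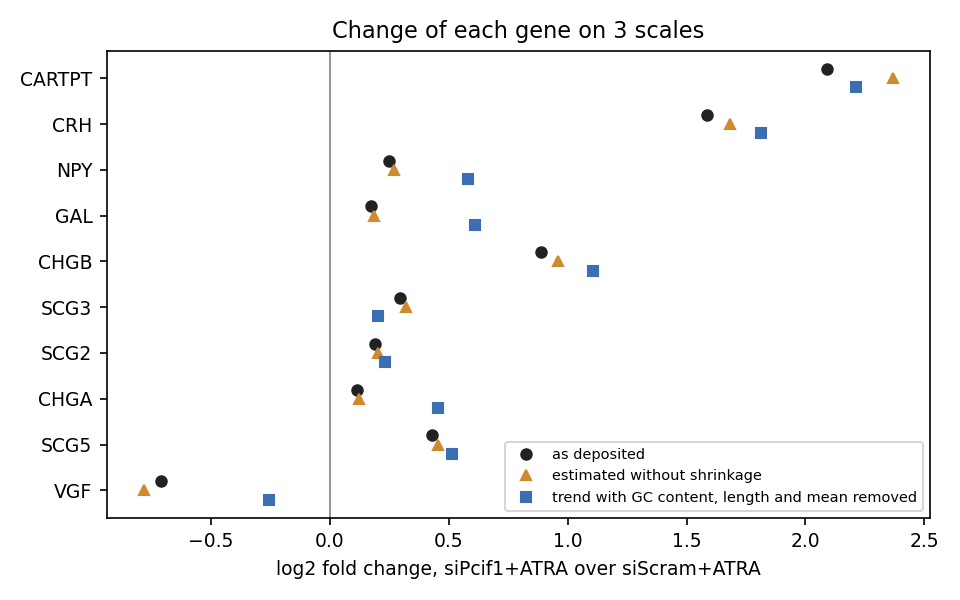
Log2 fold change of each gene as deposited (circles), estimated without shrinkage (triangles) and with the trend in GC content, length and mean expression removed (squares). Removing the trend moves VGF from -0.71 to -0.26 and moves GAL, NPY and CHGA to between 0.46 and 0.61.

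Overlapping transcripts could add reads to a count made without strand, and whether strand was used in counting is not given here. SCG3 and SCG5 overlap 3 noncoding gene models on the opposite strand, and the table lists 0 of these; the other 8 genes overlap no annotated gene.

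The other peptide precursors were called in both directions. Of 68 further precursors 12 were present in the authors' deposited table, and their median log2 fold change was 0.07. By DESeq2 at an adjusted p under 0.05, 2 were higher and 5 lower, beside 16.3% higher and 17.7% lower over all genes. Most of the 12 were scarce: with genes of a mean under 100 left out, 3 were kept, 0 higher and 2 lower. Over all genes that filter kept 8798, with 1716 higher and 1956 lower. ADCYAP1, the precursor of the pituitary adenylate cyclase-activating peptide, rose by 1.10 (SE 0.27) and NPPB, the precursor of B-type natriuretic peptide, by 0.60 (SE 0.23) on the log2 scale per the authors' deposited table. ADM2, which encodes a peptide of the calcitonin family, was at -1.74 (SE 0.18), and NUCB2, the precursor of nesfatin, at -1.06 (SE 0.18) per the authors' deposited table. NPPA, the atrial natriuretic peptide precursor, NMB, the neuromedin B precursor, and SPX, the spexin precursor, were at -0.93, -0.78 and -1.04 per the authors' deposited table; SPX was named after its value was seen. VIP, the vasoactive intestinal peptide precursor and the most abundant of the 12 by count, was at -0.05 (SE 0.17, DESeq2 adjusted p = 0.86) per the authors' deposited table. CALCB, for a calcitonin gene-related peptide, was at 0.46 (SE 0.20) there and missed the threshold (DESeq2 adjusted p = 0.0592). With the trend removed 3 of the 12 were higher and 4 lower, beside 12.5% higher and 12.8% lower over 13877 genes on that scale. NMB then missed the threshold at -0.46, and CALCB passed it at 0.52.

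Enzymes that cut and modify precursors were called in both directions, more of them lower than higher. Of 17 such genes 12 were present in the authors' deposited table, 1 higher and 4 lower by DESeq2, with a median log2 fold change of -0.14. Among all genes, 16.3% were called higher and 17.7% lower. TPST1, a Golgi enzyme that adds sulphate to tyrosines, was at -0.79 (SE 0.15), PCSK6, a proprotein convertase, at -0.97 (SE 0.27) and QPCTL, a glutaminyl cyclase, at -0.74 (SE 0.23) per the authors' deposited table. PCSK1N, which encodes proSAAS, a granin-like inhibitor of the convertase PCSK1, was at -0.39 (SE 0.15) there, and at 0.03 with the trend removed. CPD, a carboxypeptidase of the trans-Golgi network, rose by 0.57 (SE 0.16) per the authors' deposited table, and was at 0.28 with the trend removed. PAM, which amidates the ends of many peptides including neuropeptide Y and galanin, was at 0.11 (SE 0.14) and PCSK7 at 0.20 (SE 0.16) per the authors' deposited table, and neither passed. With the trend removed 1 of the 12 was higher and 2 lower, beside 12.5% higher and 12.8% lower over 13877 genes on that scale. PCSK1N, CPD and QPCTL then missed the threshold, QPCTL at -0.57 with an adjusted p of 0.0539 computed from the DESeq2 SE, and PCSK7 passed it at 0.39. PCSK1, PCSK2, PCSK5, CPM and CPZ were not analysed here.

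Genes of granule formation and release went both ways. Of 46 such genes 39 were present in the authors' deposited table, 10 higher and 10 lower by DESeq2, with a median log2 fold change of -0.02. All genes together had 16.3% called higher and 17.7% lower. With the trend removed 9 of the 39 were higher and 9 lower, beside 12.5% higher and 12.8% lower over 13877 genes on that scale. RAB27B and RAB3C, small GTPases of vesicle docking, rose by 1.35 (SE 0.20) and 0.88 (SE 0.16), and RAB3A, a further one, by 0.95 (SE 0.18) per the authors' deposited table. DMXL2, a regulator of the vesicular proton pump, rose by 1.02 (SE 0.15) there. HID1, needed for the maturation of dense-core granules, was at -1.78 (SE 0.18) and was the lowest of the 39 per the authors' deposited table. SORCS1, a sorting receptor, ARFIP2, a BAR-domain protein of the trans-Golgi network, and PTPRN, a granule membrane protein, were at -0.92, -0.93 and -0.69 per the authors' deposited table, with SEs of 0.14, 0.14 and 0.15. PTPRN was at -0.35 with the trend removed, at an adjusted p of 0.0667 computed from the DESeq2 SE. SYT4, a granule synaptotagmin, and UNC13B, a priming factor, were at 0.21 and -0.21 per the authors' deposited table, and neither passed.

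Neuropeptide receptors were called in both directions. Of 69 receptor genes 18 were present in the authors' deposited table, 6 higher and 2 lower by DESeq2, with a median log2 fold change of 0.11. The shares called over all genes were 16.3% higher and 17.7% lower. Several receptors were scarce: with genes of a mean under 100 left out, 8 were kept, 3 higher and 1 lower. Over all genes that filter kept 8798, with 1716 higher and 1956 lower. OPRM1, the µ-opioid receptor, rose by 0.91 (SE 0.17), MCHR1, a receptor of melanin-concentrating hormone, by 0.83 (SE 0.18) and APLNR, the apelin receptor, by 0.85 (SE 0.23) per the authors' deposited table. NPY2R, a receptor of neuropeptide Y, rose by 0.71 (SE 0.19) there; GALR1, a galanin receptor named after its value was seen, was at 0.55 (SE 0.21), and at 0.19 with the trend removed. EDNRA, the endothelin A receptor, and RAMP2, a receptor-modifying protein, were at -0.95 (SE 0.18) and -0.74 (SE 0.25) per the authors' deposited table. With the trend removed 5 of the 18 were higher and 2 lower, beside 12.5% higher and 12.8% lower over 13877 genes on that scale. RAMP2, at -0.49, and GALR1 then missed the threshold. RAMP1 and SORT1, a receptor that binds neurotensin, were at -0.16 and 0.09 per the authors' deposited table, and neither passed.

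Of 19 genes for CREB, its coactivators, the neuronal repressor REST and related regulators, 15 were present in the authors' deposited table, 1 higher and 0 lower by DESeq2, with a median log2 fold change of -0.16. By the same DESeq2 call 16.3% of all genes were higher and 17.7% lower. At an unadjusted p under 0.05 the counts among the 15 were 1 higher and 1 lower. CREB1, the factor that binds the CRE, was at 0.43 (SE 0.16, DESeq2 adjusted p = 0.0267) per the authors' deposited table, and at 0.04 with the trend removed. With the trend removed 1 of the 15 was higher and 2 lower, beside 12.5% higher and 12.8% lower over 13877 genes on that scale. CREB1 then missed the threshold, and CRTC1, a CREB coactivator, passed it at 0.59. REST and ATF2, a factor related to CREB, passed it at -1.08 and -0.53. CRTC1, REST and ATF2 were named after their values were seen. The acetyltransferases EP300 and CREBBP were at -0.21 and -0.12 per the authors' deposited table, and neither passed.

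**Figure D5:**
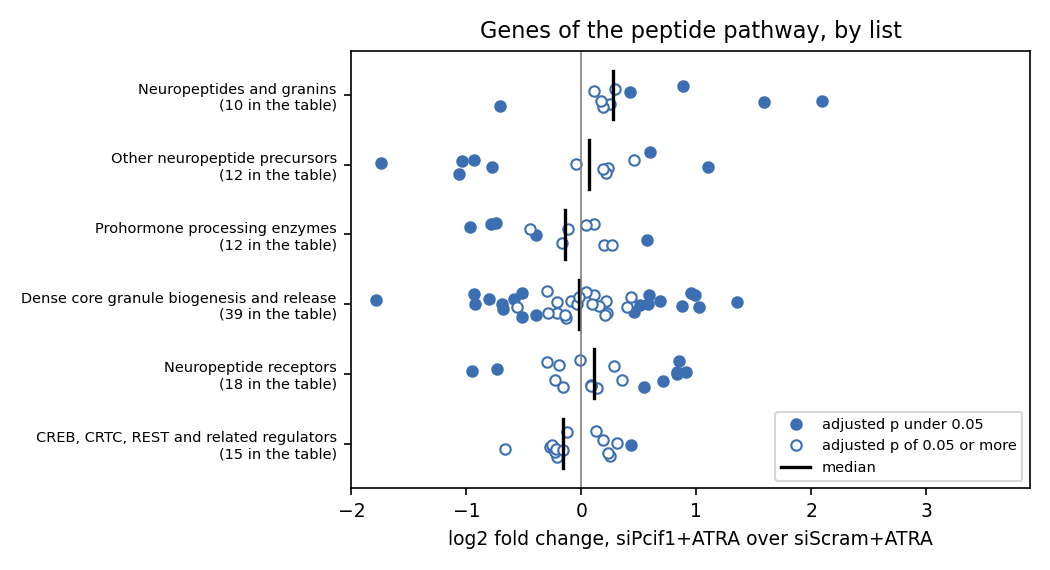
Log2 fold change of every listed gene in the 10 neuropeptides and granins and in 5 lists of the peptide pathway, with filled points for an adjusted p under 0.05 and bars for the medians. Medians run from -0.16 in the regulators to 0.27 in the neuropeptides and granins, and each list other than the regulators has called genes on both sides of 0.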

How the data were processed

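RNA from 6 samples was compared as 2 groups of 3. Per the labels' protocols, poly(A)-selected stranded libraries were made from DNase-treated RNA. Tools named in the submitters' processing notes are bcl2fastq 2.20, cutadapt 3.7, STAR 2.7.10a, HTSeq, deepTools and DESeq2, with the build hg38; their settings and the annotation are not given here. The deposited table holds 13885 genes. Its mean of normalised counts is a signal over all samples by the authors (sum 1.41e+07). The log2 fold change with its SE, the Wald statistic (a score) and the p-value with its adjusted value are as deposited by the authors; SEs ran from 0.12 to 0.30, and depth per library is unknown.

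Symbols, coordinates and transcripts came from GENCODE 29 (13877 identifiers matched). The 95% intervals are normal ones from the deposited SEs. No SE exceeded 0.295, as a normal shrinkage prior would give; unshrunken values were solved for a prior SD of 0.59 and are estimates. The trend was a cubic polynomial (degree 3) in GC content, log2 length and log2 mean over 13877 genes. The 10 genes, the lists and the alternatives were chosen with earlier results of these data known. Named from each list were up to 4 called genes in each direction with the smallest adjusted p and up to 2 uncalled genes of highest mean. In simulated data on 13885 genes, the call found 87% of 200 shifts of 1 (log2) in the true direction. The noise there was normal at the deposited SEs and all other genes were unchanged. That share therefore checks the steps and does not give the sensitivity in these samples. Tables were handled in Python 3.11.15 with pandas 2.3.3, fits in numpy 2.4.6 and scipy 1.17.1, and plots in matplotlib 3.10.9.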

Additional observations from a re-analysis of the deposited data

How the results depend on the processing

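No paired analysis was possible because the table holds 1 comparison and no values per library; for the same reason no library could be left out. Of the 10 genes 4 were higher and 1 lower as deposited, and these counts stayed within 1.5 times at thresholds of 0.01 and 0.1, with an absolute log2 fold change of at least 0.5, after centring on the median and with genes of a mean under 100 left out. Against an absolute change of 0.3, 0 were lower (1 at an unadjusted p under 0.05, from the authors' DESeq2 values), where all genes had 687 higher and 839 lower. With the Wald statistic divided by its robust SD of 2.44, 2 were higher and 0 lower (3 and 0 unadjusted), the 2 being CRH and CARTPT, where all genes had 21 and 114. With the trend removed 7 were higher and 0 lower (7 and 0 unadjusted), and the median of the 10 was 0.55 in place of 0.27; all genes then had 1736 higher and 1774 lower. The 5 pathway lists together, with 20 higher and 21 lower of 96, had 9 and 10 against a change of 0.3, 0 and 2 with the rescaled statistic (6 and 7 unadjusted), and 13 higher when genes of a mean under 100 were left out, which kept 62. Over all genes that filter kept 8798, with 1716 higher and 1956 lower. Of 50 tested results for single genes of the 10, 41 kept their call and 0 reversed; without shrinkage, which gives no test, CARTPT moved to 2.37 and the other 9 moved by less than their SE. CHGB, SCG5 and VGF lost theirs with the rescaled statistic, and SCG5 and VGF against a change of 0.3. The cause of these shifts was not tested, beyond the fewer genes tested or the wider null that an alternative sets by construction. The deposited SE limits precision, and depth per library is unknown.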
